A study of Caenorhabditis elegans with 2 samples.

Results

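The genes described here encode the proteins of the cytosolic ribosome of Caenorhabditis elegans. They are the 78 protein-coding genes, of 19971 in the RefSeq annotation of build ce11 (WBcel235), whose symbol begins with rpl- (48 genes, large subunit) or rps- (30 genes, small subunit). No gene symbol in this annotation begins with rla-, and the stalk proteins appear as rplp-0, rplp-1, rplp-2.1 and rplp-2.2, which are given beside other gene lists further down. The label held for these genes by their annotated products with 1 clear exception, rpl-42, whose product is named as a NAM-associated domain protein; it had no region in any list, so leaving it out changed no count of genes with a peak. The data are chromatin immunoprecipitation with sequencing (ChIP-seq), which maps where a protein sits on the genome, for the product of B0261.1, a gene listed as vep-1. Worms of strain OP662 carried the mutation unc-119(tm4063) and the transgene wgIs662, from which B0261.1 is made with GFP and FLAG at its C terminus, and the protein was pulled down through its GFP. Both samples were whole young adults of pooled sexes, taken 64 hours after synchronisation by starving larvae of the first stage, and form 1 group of 2 biological replicates, numbered 1 and 3. Tissues are mixed in whole animals, so a region cannot be assigned to a cell type, and control libraries were not analysed here.

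A ribosome has a small subunit, which reads the messenger RNA, and a large subunit, which joins the amino acids. Ribosomal proteins are needed in matched amounts, and their genes are among the most strongly transcribed in growing cells. In C. elegans many of their introns hold small nucleolar RNA (snoRNA) genes, whose products guide chemical changes of ribosomal RNA, and many messenger RNAs receive a leader by trans-splicing, so the annotated start of a gene can lie downstream of where transcription begins. Places of single proteins within the ribosome are given below as known from ribosomes of yeast and mammals.

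For build ce11 there were 23931 deposited regions of replicate 1, 30000 of replicate 3 and 30000 of both replicates pooled. A shorter list of 1550 peaks had passed the authors' cut-off in IDR, the irreproducible discovery rate, which asks how well ranks repeat between replicates. Each region has a summit, its point of strongest enrichment, and a signal value given by the authors without a stated scale, so signals and ranks are compared within 1 list only (rank 1 is the strongest). A gene was said to have a region when a summit lay in its start window, which runs from 500 bp before the annotated start to 100 bp after it. Regions in a list are not replicates and the genes were chosen with earlier results of these data known, so counts are described beside the same count over all protein-coding genes, with no test. Intervals are 95% Wilson intervals and cover counting of genes only, since the lists give no read depth.

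The sequences under the peaks come first, because the strongest of them share short words. The first 6 were taken by rank of signal, passing over rps-19, the fifth in rank. It was left out for where it lies in the genome and not for its words, of which it holds ACACTC only. The last 4 are shown for a pair of words lying side by side, seen only after the data were examined. Each is the 101 bp centred on the IDR summit, from the RefSeq genome of build ce11, printed 5′ to 3′ in the direction of its gene. Capitals mark ACCGTA and ACACTC, read on either strand (TACGGT and GAGTGT are their reverse complements). All 10 lie upstream of the gene they are listed under and overlap no protein-coding gene.

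rpl-15: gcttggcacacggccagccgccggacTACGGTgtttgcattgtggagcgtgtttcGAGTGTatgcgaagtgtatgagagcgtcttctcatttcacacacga
rpl-35: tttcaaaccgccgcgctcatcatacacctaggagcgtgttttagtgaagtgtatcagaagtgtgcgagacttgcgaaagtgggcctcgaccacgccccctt
rpl-3: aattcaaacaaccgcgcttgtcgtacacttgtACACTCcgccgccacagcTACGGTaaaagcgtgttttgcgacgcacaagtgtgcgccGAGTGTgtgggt
rps-3A: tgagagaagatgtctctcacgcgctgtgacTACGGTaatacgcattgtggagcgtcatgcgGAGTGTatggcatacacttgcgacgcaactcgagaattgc
rpl-18A: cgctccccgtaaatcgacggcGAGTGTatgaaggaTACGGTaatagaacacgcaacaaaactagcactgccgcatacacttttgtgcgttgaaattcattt
rpl-38: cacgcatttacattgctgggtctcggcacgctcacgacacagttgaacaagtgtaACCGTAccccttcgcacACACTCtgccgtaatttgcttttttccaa
rps-23: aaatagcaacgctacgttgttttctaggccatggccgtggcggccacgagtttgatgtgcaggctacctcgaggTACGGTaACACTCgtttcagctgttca
rpl-22: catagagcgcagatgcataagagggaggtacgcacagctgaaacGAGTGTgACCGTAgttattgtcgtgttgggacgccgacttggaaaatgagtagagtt
rpl-11.2: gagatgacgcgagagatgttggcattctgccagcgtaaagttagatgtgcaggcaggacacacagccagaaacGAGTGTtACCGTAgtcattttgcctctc
rpl-21: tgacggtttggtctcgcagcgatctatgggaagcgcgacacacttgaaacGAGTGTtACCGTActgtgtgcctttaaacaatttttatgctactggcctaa

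In ce11 these stretches are chrIV:654872-654972 (rpl-15, minus strand), chrIII:7854640-7854740 (rpl-35, plus), chrIII:3867517-3867617 (rpl-3, plus), chrIII:4475605-4475705 (rps-3A, plus), chrIV:4750016-4750116 (rpl-18A, minus) and chrV:15511773-15511873 (rpl-38, plus). Those of the last 4 genes are chrIV:12391286-12391386 (rps-23, minus), chrII:5055343-5055443 (rpl-22, plus), chrX:2242945-2243045 (rpl-11.2, minus) and chrIII:8130480-8130580 (rpl-21, minus). Of the first 6, rpl-35 alone holds neither word.

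An IDR peak lay in the start window of 19 of the 78 ribosomal protein genes (24.4%, interval 16.2 to 34.9%), where the share over all protein-coding genes was 1.84% (367 of 19971). In order of signal they were rpl-15, rpl-35, rpl-3, rps-3A, rps-19, rpl-18A, rpl-38, rpl-12, rps-23, rpl-22, rps-20, rps-24, rps-28, rps-15, rps-26, rps-12, rpl-14, rpl-11.2 and rpl-21. Most of these peaks were in the weaker part of the IDR list, whose median signal was 504. Their median signal was 308 (range 185 to 797), beside 257 over the 367 protein-coding genes with a peak in the start window, and their median rank was 1010, beside 1137. A total of 634 IDR peaks ranked above the strongest of them, and 4 of the 19 were among the 775 IDR peaks of highest signal.

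**Figure D1:**
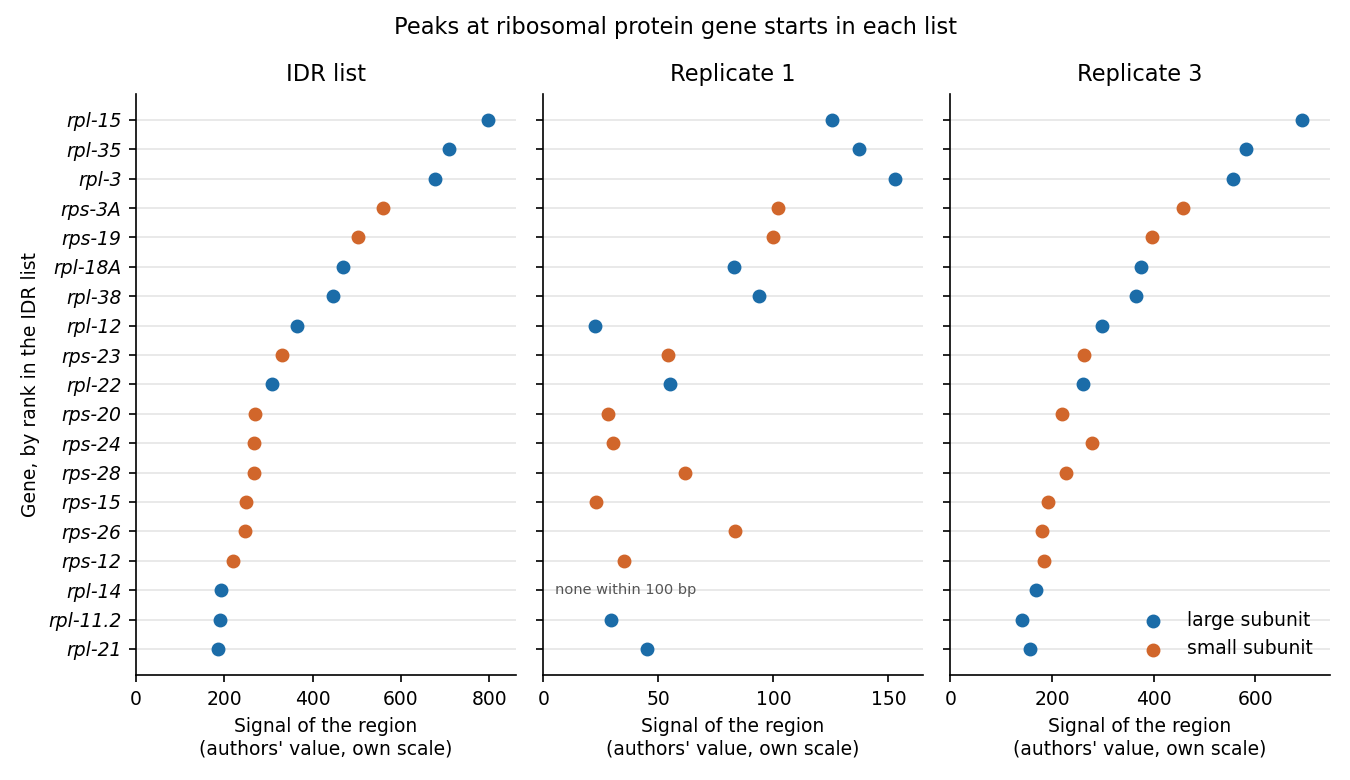
Signal of the region at the summit of each of the 19 ribosomal protein genes with an IDR peak (rows, in order of rank in the IDR list) in the IDR list, in replicate 1 and in replicate 3, with large subunit genes in blue and small subunit genes in orange; each horizontal axis has its own scale. rpl-15, rpl-35 and rpl-3 have the highest values in all 3 panels, and rpl-14 has no region of replicate 1 within 100 bp.

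The 3 strongest peaks lay at genes of the large subunit. rpl-15 (K11H12.2, IV, 653480 to 654576, minus strand) encodes protein eL15, and its summit was 346 bp upstream of the start. Its region had a signal of 797 (rank 635) in the IDR list, 811 (rank 629) in the pooled list, 126 (rank 909) in replicate 1 and 691 (rank 642) in replicate 3. It was the strongest of all 78 genes in the IDR, pooled and replicate 3 lists. rpl-35 (ZK652.4, III, 7855134 to 7855646, plus strand), which encodes uL29, a protein beside the exit of the peptide tunnel, had its summit 444 bp upstream. The signal there was 710 (rank 662) in the IDR list, 137 (rank 853) in replicate 1 and 582 (rank 684) in replicate 3. rpl-3 (F13B10.2, III, 3867854 to 3869587, plus strand) encodes uL3, a large protein that reaches towards the site where peptide bonds form. Its summit lay 287 bp upstream, with a signal of 677 (rank 671) in the IDR list, 153 (rank 798) in replicate 1 and 555 (rank 696) in replicate 3. In replicate 1 it was the strongest of the 78, so the order of these 3 genes differed between the replicates.

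The next 2 peaks belonged to the small subunit. rps-3A (F56F3.5, III, 4475918 to 4476876, plus strand) encodes eS1, and its summit, 263 bp upstream, is the only one of the 19 inside an annotated gene: it falls in exons of the noncoding RNA genes F56F3.11 and F56F3.10. Its signal was 558 (rank 741) in the IDR list, 102 (rank 1039) in replicate 1 and 458 (rank 769) in replicate 3. rps-19 (T05F1.3, I, 9625068 to 9625796, minus strand) encodes eS19, a protein of the small subunit's head. Its summit 287 bp upstream had a signal of 502 (rank 777) in the IDR list, 100 (rank 1046) in replicate 1 and 396 (rank 823) in replicate 3, and is nearer to the start of its divergent neighbour hsr-9 (158 bp) than to its own.

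3 further large subunit genes complete the 8 strongest. rpl-18A (E04A4.8, IV, 4749167 to 4749778, minus strand; eL20) had its summit 288 bp upstream, with a signal of 469 (rank 804) in the IDR list, 82.9 (rank 1166) in replicate 1 and 375 (rank 851) in replicate 3. rpl-38 (C06B8.8, V, 15512179 to 15512736, plus strand; eL38) had its summit 356 bp upstream, with 445 (rank 826), 93.9 (rank 1091) and 365 (rank 864) in the same order of lists. Both were thus within the strongest regions of either replicate. rpl-12 (JC8.3, IV, 13239587 to 13240651, minus strand) encodes uL11, at the base of the stalk where translation factors bind, and was the odd one out in place and in replicate 1. Its summit lay only 26 bp upstream, with a signal of 365 (rank 911) in the IDR list and 298 (rank 968) in replicate 3. The nearest region of replicate 1, 83 bp away, had 22.6 (rank 5273). A stronger region of replicate 1 lay in the same start window, 92 bp downstream of the start, with 48.9 (rank 1640).

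The other 11 genes had IDR signals from 330 at rps-23 (rank 968), which encodes uS12 of the decoding centre, to 185 at rpl-21 (rank 1503). In replicate 1 their signals at the summit ran from 22.8 at rps-15 (rank 5132) to 83.4 at rps-26 (rank 1163), leaving out rpl-14, which had no region of replicate 1 within 100 bp. In replicate 3 they ran from 141 at rpl-11.2 (rank 1772) to 279 at rps-24 (rank 1024). Replicate 3 thus carried more of these peaks than replicate 1. A region lay within 100 bp of the IDR summit for 18 of the 19 genes in replicate 1 and for 19 of 19 in replicate 3. Among the 1550 regions of highest signal of each replicate, as many as there are IDR peaks, it did so for 11 of 19 in replicate 1 and 17 of 19 in replicate 3, and all 11 were among the 17.

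Taking each replicate alone gave fewer genes from replicate 1. The 1550 regions of highest signal put a summit in the start window of 11 of 78 ribosomal protein genes in replicate 1 (14.1%, interval 8.06 to 23.5%), beside 0.901% of all protein-coding genes. In replicate 3 it was 17 of 78 (21.8%, interval 14.1 to 32.2%), beside 1.67%. The count of replicate 1 is more than 1.5 times below the 19 of the IDR list, while the share over all genes is lower there too.

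Most ribosomal protein genes had some weaker region near the start. In the pooled list 65 of 78 did (83.3%, interval 73.5 to 90.0%), beside 25% of all protein-coding genes. The whole lists of the replicates gave 54 of 78 in replicate 1 (69.2%, interval 58.3 to 78.4%), beside 18.5%, and 65 of 78 in replicate 3 (83.3%, interval 73.5 to 90.0%), beside 24.2%. A region was present in the pooled list and in both replicates for 47 genes (60.3%), beside 10.8% of all protein-coding genes, and in at least 1 list for 72 (92.3%), beside 34%.

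The members just below the IDR list, by pooled signal, were rps-16, rpl-29, rpl-7A, rpl-41.2 and rps-15A. rps-16 had a pooled signal of 172 (rank 1585) with its summit 41 bp downstream of the start, and 20.3 (rank 6645) in replicate 1 and 128 (rank 1951) in replicate 3. It follows fib-1, the gene of the methyltransferase fibrillarin, which ends 112 bp upstream on the same strand and has an IDR peak of its own at its start. The pooled signals of the others were 162 (rpl-29, rank 1671), 160 (rpl-7A, rank 1693), 154 (rpl-41.2, rank 1768) and 154 (rps-15A, rank 1774). The strongest regions in their start windows ranked from 2285 to 4047 in replicate 1, where rpl-41.2 had none, and from 1735 to 2615 in replicate 3. None was thus among the 1550 strongest of either replicate. In replicate 1 the summit lay away from the pooled one at rpl-29 (-442 bp, pooled -312 bp) and rpl-7A (74 bp, pooled -49 bp).

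No list held a region in the start window of 6 genes: rpl-27A, rpl-10L, rpl-42, rpl-37.2, rpl-11.1 and rpl-23A.1. Of these, 3 have a counterpart that encodes the same ribosomal protein and did have a region. rpl-11.2 had an IDR peak (191, rank 1461), while rpl-23A.2 had a pooled signal of 90.7 (rank 3452) and rpl-37.1 one of 77.0 (rank 4399). rpl-23A.1 is also 1 of 7 ribosomal protein genes with a gene ending within 500 bp upstream on the same strand, an arrangement found in operons. Of these 7 genes (rpl-13A, rpl-23A.1, rpl-27, rps-16, rps-17, rps-2 and rps-7), 0 had an IDR peak and 5 a pooled region. Over all 3600 protein-coding genes in this arrangement, 1.69% had an IDR peak and 33.7% a pooled region, and 7 genes are too few to set a share of 0 apart from that.

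Genes of both subunits had peaks. An IDR peak lay at 10 of 48 large subunit genes (20.8%, interval 11.7 to 34.3%) and at 9 of 30 small subunit genes (30.0%, interval 16.7 to 47.9%), and these intervals overlap. With the 1550 strongest regions of replicate 1 alone it was 12.5% of large and 16.7% of small subunit genes, and with those of replicate 3 it was 16.7% of large and 30% of small subunit genes. Pooled regions lay at 39 of 48 large subunit genes (81.2%) and 26 of 30 small subunit genes (86.7%). In replicate 1 it was 32 of 48 large (66.7%) and 22 of 30 small subunit genes (73.3%), and in replicate 3 it was 37 of 48 (77.1%) and 28 of 30 (93.3%). Signal had no single order: the median of the IDR peaks was 405 for large and 267 for small subunit genes, while the median of the pooled regions was 89.1 for large and 120.0 for small subunit genes. The difference between the subunits was not tested.

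**Figure D2:**
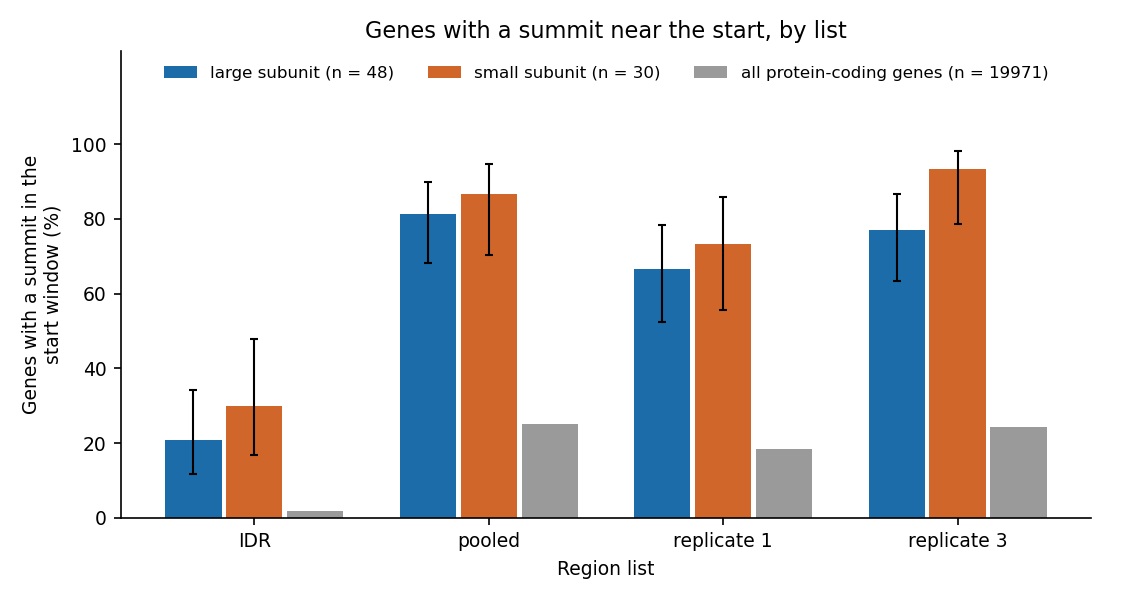
Share of genes with a summit in the start window (vertical axis, percent) in each of the 4 lists, for large subunit genes, small subunit genes and all protein-coding genes; lines on the bars are 95% Wilson intervals. In every list both subunits stand above all protein-coding genes, and the intervals of the 2 subunits overlap.

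The summits lay well upstream of the annotated starts. The median offset of the 19 IDR summits was -288 bp (range -444 to -26), beside -238 bp over all genes with an IDR peak in the window, and 18 of 19 were over 100 bp upstream. With a window from 200 bp upstream, 2 of 78 ribosomal protein genes had an IDR peak, beside 0.771% of all protein-coding genes. Of the 19, 14 (73.7%) lay 200 to 400 bp upstream, beside 46.6% over all genes with a peak. The pooled list gave the same picture, with a median of -287 bp for the 65 ribosomal protein genes and -169 bp over all genes with a region. By replicate the median was -280 bp, beside -188 bp, in replicate 1 and -287 bp, beside -174 bp, in replicate 3. With the 1550 strongest regions alone the median was -317 bp over 11 genes in replicate 1 and -288 bp over 17 in replicate 3. Their mean was -302.5 ± 20.5 bp (SD, n = 2 replicates). The 2 medians cover different sets of genes, so this SD also holds which genes pass the cut. Large and small subunit genes hardly differed, with medians of -295.5 and -287 bp in the IDR list.

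**Figure D3:**
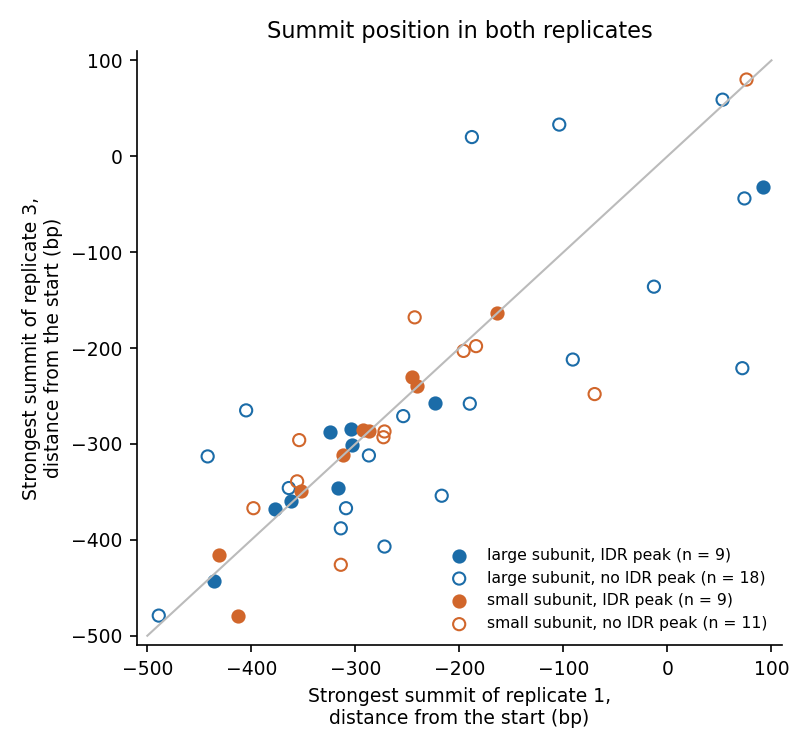
Distance of the strongest summit from the annotated start (bp, negative upstream) in replicate 1 (horizontal axis) and replicate 3 (vertical axis) for the ribosomal protein genes with a region in both; filled points have an IDR peak and the line marks equal positions. Most filled points lie on the line between -450 and -150 bp.

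Of the 47 ribosomal protein genes with a region in both replicates, the strongest summits of the replicates were a median of 25 bp apart and within 100 bp for 34 (72.3%). The 2239 other genes with a region in both replicates had a median of 73 bp, with 59.6% within 100 bp. IDR peaks are chosen for their repeat between replicates, so the genes with and without one are given apart. With an IDR peak, 17 of 18 ribosomal protein genes were within 100 bp (94.4%, median 8.5 bp), the exception being rpl-12, beside 92.2% of 334 other genes (median 22 bp). Without one, it was 17 of 29 (58.6%, median 68 bp), beside 53.9% of 1905 other genes (median 91 bp).

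Where a neighbouring gene starts close by on the other strand, a summit can belong to the start window of both. A divergent protein-coding start lay within 1000 bp of 45 of the 78 genes and of 12 of the 19 with an IDR peak. For 12 of the 19 the nearest protein-coding start was their own. For the other 7 it was that of the divergent neighbour: hsr-9 for rps-19, Y17G9B.5 for rpl-18A, dpm-3 for rps-23, ify-1 for rpl-22, ekl-4 for rps-20, tmem-107 for rps-26 and ska-3 for rps-12. The summit near rps-26 was only 15 bp from the start of tmem-107. Of the 33 genes with no divergent start that close, 7 had an IDR peak, among them rpl-35 and rpl-3. Divergent and nearest starts were not counted over all protein-coding genes, so no share stands beside these counts. Within the ribosomal protein genes, 2 pairs shared a pooled summit between divergent starts, rpl-24 with rps-10 (signal 118, rank 2415) and rpl-36 with rps-14 (89.1, rank 3543).

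The genes with IDR peaks were spread over all 6 chromosomes. They numbered 5 of 23 ribosomal protein genes on I, 1 of 11 on II, 5 of 18 on III, 6 of 17 on IV, 1 of 7 on V and 1 of 2 on X.

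Around the starts and ends, pooled summits gathered in a pair of zones. In the bin from 300 to 250 bp upstream of the start, 24.4% of ribosomal protein genes had a pooled summit, beside 2.62% of all protein-coding genes. Nearer to the start the shares were lower: in the 4 bins from 100 bp upstream to 100 bp downstream, 2.56, 5.13, 3.85 and 6.41% of ribosomal protein genes had one, beside 2.71, 2.81, 2.64 and 2.46% of all protein-coding genes. The second zone lay past the annotated end, where 23.1% of ribosomal protein genes had a pooled summit in the bin 150 to 200 bp downstream, beside 3.81%. The window past the end was looked at only after the data had been seen.

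**Figure D4:**
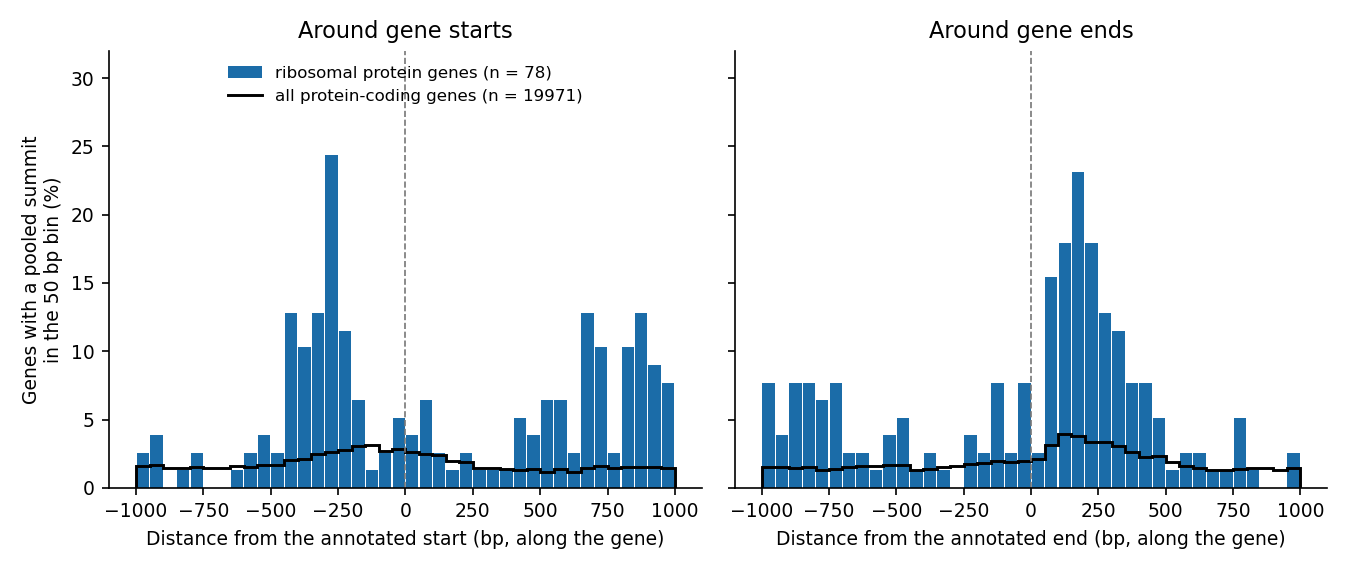
Share of genes with a pooled summit in each bin of 50 bp (vertical axis, percent) by distance from the annotated start (left) and the annotated end (right), with blue bars for the 78 ribosomal protein genes and a black line for all protein-coding genes. The bars rise to 24.4% between 300 and 250 bp upstream of the start and to 23.1% between 150 and 200 bp past the end. The genes have a median length of 747.5 bp, so bins far downstream of the start also cover gene ends.

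In the 500 bp past the gene end, 71 of 78 ribosomal protein genes had a pooled region (91.0%, interval 82.6 to 95.6%), beside 24.5% of all protein-coding genes. Replicate 1 had one at 64 (82.1%), beside 18.9%, and replicate 3 at 69 (88.5%), beside 24.2%. The median distance past the end was 177 bp for ribosomal protein genes and 220 bp over all genes with such a region, and the median pooled signal was 101 and 49.0. A pooled region at both the start and past the end was present for 62 of the 78 genes, beside 2451 of 19971. C. elegans genes are densely packed, and 24 of these 71 summits (33.8%) fell in the start window of another protein-coding gene, beside 25.4% over all genes. Without those, 60.3% of ribosomal protein genes still had a pooled region past the end, beside 18.3% of all protein-coding genes.

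IDR peaks past the end were fewer, at 10 of 78 ribosomal protein genes (12.8%, interval 7.12 to 22.0%), beside 1.57% of all protein-coding genes. rpl-15, rpl-3, rpl-38 and rpl-12 had one at each end of the gene, with signals past the end of 184, 225, 224 and 236, below their start peaks. The other 6 were rpl-4 (259), rps-6 (258), rpl-27 (253), rps-4 (252), rpl-11.1 (230) and rps-13 (190), which had no IDR peak at the start. rpl-4 encodes uL4, which lines the peptide tunnel, and rps-6 encodes eS6, a target of growth signalling kinases in mammals. The distances past the end ran from 60 bp at rps-13 to 488 bp at rpl-38. In replicate 1 these regions ranked from 1266 to 2380, and rps-13 had none, and in replicate 3 they ranked from 1184 to 1762. With the 1550 strongest regions of replicate 1 alone the count was 3, and with those of replicate 3 it was 9. Neither was counted over all protein-coding genes. The IDR count of 10 thus lay nearer to that of replicate 3. Of the 10 summits, 2 also lay in the start window of another gene, K11H12.1 past rpl-15, and egl-30 and C53H9.4 past rpl-27. The summits past 6 of the 10 genes fell in exons of other genes: K11H12.1 past rpl-15, tir-1 past rpl-3, lgc-31 past rpl-38, tag-115 past rpl-12, lmd-2 past rpl-4 and Y43B11AR.3 past rps-4. Those past rpl-11.1 and rps-13 also lie past the ends of pygl-1 and thoc-2, so these peaks cannot be assigned to the ribosomal protein genes alone. An IDR peak at the start or past the end was present for 25 of the 78 genes (32.1%), beside 3.23% of all protein-coding genes, and one at both for 4 (5.13%), beside 0.170%.

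Inside the genes the shares lay near the background. IDR peaks in the gene body, from 100 bp downstream of the start to the end, numbered 0 of 78, for which the interval reaches 4.69%, beside 2.17% of all protein-coding genes. Pooled regions in the body were present at 30 of 78 (38.5%, interval 28.4 to 49.6%), close to the 36.0% of all protein-coding genes. Ribosomal protein genes are short, with a median length of 747.5 bp beside 2006 bp over all protein-coding genes, and the shares are not scaled by length.

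The introns of these genes hold 23 annotated snoRNA genes, in 15 hosts and all on the host's strand. The hosts are rpl-4, rpl-6, rpl-7, rpl-7A, rpl-8, rpl-15, rpl-24, rpl-26, rpl-27A, rps-4, rps-12, rps-13, rps-23, rps-27A and rps-29. An IDR summit lay within 100 bp of 0 of the 23 snoRNA genes, while over all 346 snoRNA genes of the annotation it did so for 75. Those 346 include the 23 and also snoRNA genes outside protein-coding genes. Intronic snoRNA genes of other hosts were not counted apart, so the comparison is not of like genes. Pooled summits lay within 100 bp of 3 of 23, F53G12.12 in rpl-7 (signal 69.2), F28D1.13 in rps-23 (50.6) and F54E7.10 in rps-12 (34.6), and of 160 of all 346. Replicate 1 had a summit at 10 of the 23 and at 148 of all 346, and replicate 3 at 4 of the 23 and at 149 of all 346. Hosts and other ribosomal protein genes both had start peaks: 3 of 15 hosts (rpl-15, rps-23 and rps-12) and 16 of 63 genes without a snoRNA gene had an IDR peak in the start window. No tRNA gene lay inside a ribosomal protein gene or within 500 bp of one.

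Since strong peaks in these data are frequent at small RNA genes, the count was repeated without summits within 100 bp of a tRNA, snoRNA, snRNA, spliced leader RNA or 5S rRNA gene. It was then 18 of 78 (23.1%, interval 15.1 to 33.6%), beside 1.53% of all protein-coding genes. The 1 gene lost was rps-26, whose summit lies within 100 bp of the snoRNA gene F39B2.14. The start peaks of ribosomal protein genes are therefore, with this exception, over 100 bp from annotated genes of these kinds. Other noncoding RNA genes were not screened, and the rps-3A summit falls in exons of F56F3.11 and F56F3.10. Leaving out summits within 25 bp or 250 bp instead gave 19 and 17 ribosomal protein genes, with no count over all protein-coding genes.

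The words marked in the printed sequences were counted at these summits and at other peaks near gene starts, as a description. ACCGTA and ACACTC (both strands searched; they do not overlap) were picked after the data were seen, because they were common here. Within 50 bp of the summit, ACCGTA was found at 11 of 19 ribosomal protein IDR summits (57.9%), beside 9.01% of 222 IDR summits in start windows of other genes and apart from small RNA genes. ACACTC was found at 10 of 19 (52.6%), beside 9.01%, and both at 9 of 19 (47.4%), beside 0.901%. The 10 sequences printed above include all 9 with both words: rpl-15, rpl-3, rps-3A, rpl-18A, rpl-38, rps-23, rpl-22, rpl-11.2 and rpl-21. rps-20 and rpl-14 hold ACCGTA only, and rps-19 holds ACACTC only. Measured from the replicates' own summits, both words were present at 8 of 18 genes in replicate 1 and 9 of 19 in replicate 3.

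The words were also counted at the weaker regions of ribosomal protein genes. At 44 pooled summits of genes with no IDR peak, ACCGTA was found at 20.5%, ACACTC at 18.2% and both at 11.4%. The shares were 4.91%, 5.35% and 0.416% at 4091 pooled summits of other genes, over 100 bp from IDR summits. A summit shared with a divergent neighbour, such as that of rpl-39 and fau-1, is in both sets. The share of G and C in the 101 bp differed between these sets as well: 50.5% at the 19 IDR summits, 45.2% at the 44 pooled summits, 48.3% at IDR summits of other genes and 39.5% at pooled summits of other genes. The part of base composition in the counts was not tested. Of the 10 IDR summits past the gene ends, 0 held ACCGTA and 0 held ACACTC within 50 bp.

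The words also stood in the start windows without regard to any peak. Over the whole start window, ACCGTA was found in 38 of 78 ribosomal protein genes (48.7%), beside 16% of all protein-coding genes, and ACACTC in 28 of 78 (35.9%), beside 18.5%. Both were present in 26 of 78 (33.3%), beside 3.20%. By peak, it was 9 of 19 genes with an IDR peak (47.4%) and 17 of 59 without (28.8%), so most start windows with both words had no IDR peak. Where an IDR summit held ACCGTA, the nearest copy lay between 21 bp before and 33 bp after the summit along the gene, with a median of 8 bp after it, and within 25 bp in 8 of 11.

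A closer arrangement, GAGTGT followed by ACCGTA with 0 to 2 bases between them, on either strand, was seen at 4 of 19 IDR summits: rps-23, rpl-22, rpl-11.2 and rpl-21. It was at 0 of 222 IDR summits of other genes, at 3 of 44 pooled summits of ribosomal protein genes without an IDR peak, and at 6 of 4091 pooled summits of other genes. The genome holds 62 such pairs, of which 4 had an IDR summit and 20 a pooled summit within 50 bp. Most copies of the pair thus had no summit nearby in either list. The 4 genes are among the weaker IDR peaks, with signals of 330, 308, 191 and 185.

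Sequences taken from earlier results on all peaks of these data were counted in the same way. The B box, an internal control element of tRNA genes (searched as GATCAANNC, GATCGANNC, GTTCAANNC and GTTCGANNC), was found at 0 of 19 summits, beside 4.50% of the 222 other IDR summits. CGCGCA was at 0 of 19 too, beside 18.5%. ACCACT was at 0 of 19, beside 6.76%. TAACCA was at 0 of 19, beside 2.25%. GGCCGA was at 0 of 19, beside 9.46%. For CCACTA it was 0 of 19 as well, beside 3.15%. None of these differences was tested, and 19 summits are few for reading a count of 0. Within 100 bp of the summit the B box was at 1 of 19, as were GGCCGA and TAACCA. The word CACTCG, which overlaps ACACTC in 5 of its letters, was at 7 of 19 (36.8%), beside 9.46%. GCGCAC was at 4 of 19 (21.1%), beside 16.2%, and CGGCCA at 3 of 19 (15.8%), beside 10.4%. A match is a description of letters and shows no binding.

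Other genes of translation were placed beside the ribosomal protein genes by symbol. Of 71 mitochondrial ribosomal protein genes (mrpl- and mrps-), which serve the separate ribosome of mitochondria, 1 had an IDR peak, mrpl-32 (signal 196), and 41 (57.7%) a pooled region. Of 7 genes with elongation factor symbols, 3 had an IDR peak: eef-1A.2 (282) and eef-1A.1 (217), which encode the factor that brings tRNA to the ribosome, and eef-2 (222), the translocation factor. A pooled region lay at 6 of these 7 genes (85.7%). That list includes eftu-2, a splicing GTPase. Of 33 initiation factor genes 2 had an IDR peak, iff-2 (341) and eif-3.C (200.3), and 20 (60.6%) had a pooled region. Of 19 ribosome assembly genes 4 had an IDR peak, fib-1 (273), pro-1 (224), bop-1 (220) and nol-10 (199.6), and 16 (84.2%) had a pooled region. For subunits of RNA polymerases I and III, which make ribosomal and small RNAs, it was 0 of 10, with a pooled region at 6. ubq-2, which encodes a ribosomal protein fused to ubiquitin, and rack-1 had no IDR peak, and 1 of these 2 had a pooled region.

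**Figure D5:**
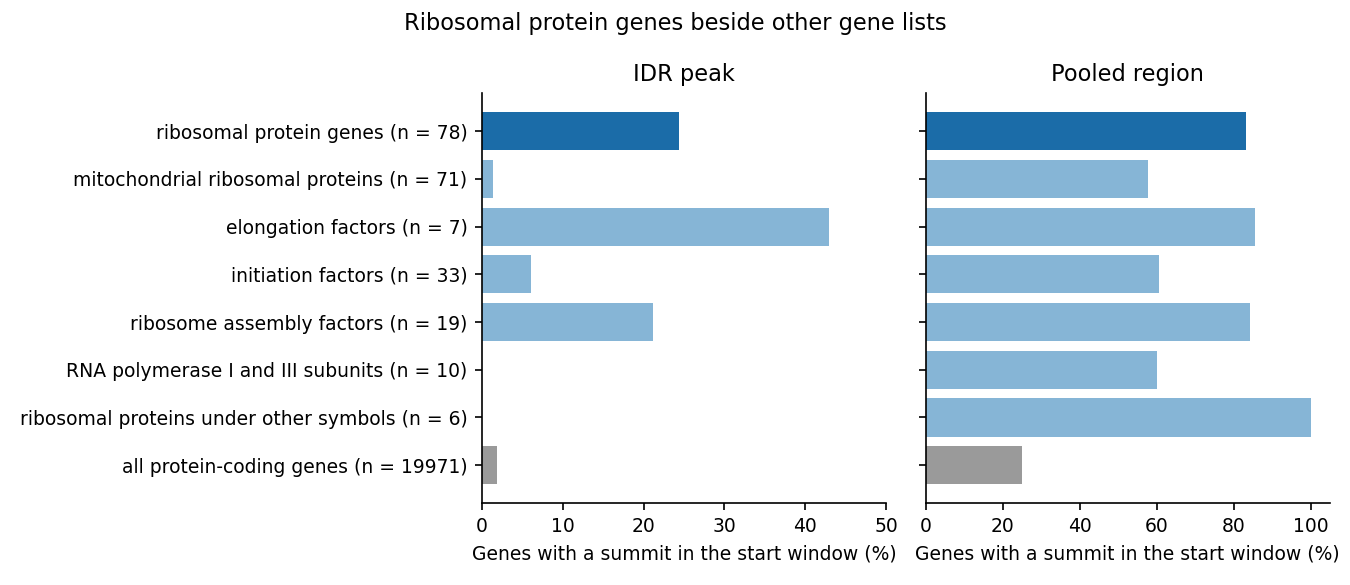
Share of genes with an IDR peak (left) and with a pooled region (right) in the start window, in percent, for ribosomal protein genes, 6 other gene lists and all protein-coding genes, with the number of genes in each list; the scales of the panels differ. Ribosomal protein genes reach 24.4% and 83.3%, mitochondrial ribosomal protein genes 1.41% and 57.7%, and all protein-coding genes 1.84% and 25%. The 7 elongation factor genes reach 42.9% and 85.7%, and ribosome assembly genes 21.1% and 84.2%. Initiation factor genes reach 6.06% and 60.6%, polymerase subunit genes 0% and 60%, and ribosomal protein genes under other symbols 0% and 100%.

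A group of 6 cytosolic ribosomal protein genes falls outside the symbol rule (rplp-0, rplp-1, rplp-2.1, rplp-2.2, rpsa-1 and fau-1) and was added after the data were seen. Of these, 0 had an IDR peak and 6 had a pooled region. The pooled summit of fau-1 (signal 78.9, rank 4211) is also the one counted for its divergent neighbour rpl-39. The pooled signals ran from 20.5 at rplp-0 (rank 28828) to 143 at rpsa-1 (rank 1931).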

How the data were processed

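ChIP-seq of B0261.1 tagged with GFP was deposited as region lists of 2 biological replicates, of both pooled, and of peaks passing IDR. The authors' lists hold peaks and background regions called as input for IDR on builds ce10 and ce11, per the deposited file descriptions. Which aligner, peak caller and cut-off were used is not given in the sources used here. The deposited signal per region has no stated normalisation and was used within a list only. The deposited −log10 q-value, 3.79 for every IDR peak, was not used. The ce10 lists and control libraries were not used here, and read depth is not in the lists, so precision rests on numbers of genes.

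Genes came from the RefSeq annotation of WBcel235, which is ce11, and coordinates are 1-based. Where several summits lay in a window, the one of highest signal was taken. The members and the gene lists were chosen with earlier results of these data known, so counts are described with 95% Wilson intervals and no test was run. Named were every member with an IDR peak, the 8 of highest signal with values, the 5 next below by pooled signal, those with no region, and members of other lists with an IDR peak. The window past the gene end, the words ACCGTA and ACACTC with their close pair, and the list of 6 genes under other symbols were added after the data were seen. Placing of summits was checked on simulated regions. Alternatives were other windows, the 775 strongest IDR peaks, pooled regions in its place, merged sites, the nearest start only, other distances to small RNA genes and each replicate alone. The scripts ran in Python 3.11.15 with pandas 2.3.3 and numpy 2.4.6 (intervals with scipy 1.17.1, plots with matplotlib 3.10.9).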

Additional observations from a re-analysis of the deposited data

How the results depend on the processing

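The counts depended most on how far upstream the window reached, because the summits lie far from the annotated starts. With a window from 200 bp upstream, 2 genes had an IDR peak (2.56%, beside 0.771% of all protein-coding genes), and 2 apart from small RNA genes. The shares were 2.08% for large and 3.33% for small subunit genes, with a median offset of -92.5 bp. In that window 19 ribosomal protein genes had a pooled region. Pooled regions there were not counted over all protein-coding genes, so no share stands beside the 19. With the 775 IDR peaks of highest signal, 4 genes had a peak (5.13%, beside 0.366% of all protein-coding genes; 6.25% of large and 3.33% of small subunit genes), with a median signal of 694, a median rank of 666.5 and a median offset of -316.5 bp. Giving each summit only to the gene with the nearest start left 12 genes (15.4%, beside 1.53%), 13.3% of small subunit genes and a median offset of -329 bp. Leaving out replicate 1 or 3, 17 and 11 genes had one of the 1550 strongest regions of the other replicate in the start window. The shares over all protein-coding genes were 1.67% and 0.901%. The median offsets were -288 and -317 bp, each over its own set of genes. The share of large subunit genes was then 16.7 and 12.5%, and that of small subunit genes 30% and 16.7%. Past the gene end it was 9 and 3 ribosomal protein genes, which were not counted over all protein-coding genes. Median signal, median rank and the count apart from small RNA genes were not run by replicate.

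Of 58 alternatives, 40 kept the result and 18 moved it. Kept means within 1.5 times (counts, signals and ranks), within the Wilson interval (shares) or within 1 SD of the replicates (offsets). That SD comes from the same 2 replicate medians that were then judged by it, so the labels of these 2 offsets are no independent check. No rule for a reversal was set. With a window from 1000 bp upstream 20 genes had an IDR peak (25.6%, beside 2.70% of all protein-coding genes). No paired analysis was possible because there is 1 group. Read depth is not in the lists, so what it limits is unknown.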
